A study of Mus musculus with 27 samples.

Results

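The genes described here are 43 mouse genes of the ATF4 amino acid stress response, taken by symbol from a list of known pathway genes. They fall into 15 regulators and stress effectors, 11 enzymes of amino acid and one-carbon synthesis, 5 amino acid transporters, and 12 genes of tRNA charging and tRNA export. All 43 stood among the 14006 genes of the stem cell table, 42 among the 16598 genes of the germinal vesicle (GV) oocyte table, 42 among the 16304 of the post-GV oocyte table and 38 among the 17715 of the round spermatid table. A filter on low counts left 40, 40, 40 and 35 of them for testing in those tables, so the counts below refer to tested members. Too low to test were Aldh1l2, Sars and Slc7a11 in stem cells, Atf5 and Stc2 in GV oocytes, Aldh1l2 and Stc2 in post-GV oocytes, and Ddit4, Nupr1 and Ppp1r15a in spermatids. Slc7a3 was not listed for GV oocytes, Trib3 not for post-GV oocytes, and Atf3, Cebpb, Pycr1, Stc2 and Trib3 not for spermatids.

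The study sequenced RNA from mouse cells in which m6A, the N6 methylation of adenosines in mRNA, lacks either its readers, the YTH-domain proteins Ythdf1, Ythdf2 and Ythdf3, or the methyltransferase Mettl3 that places it. Embryonic stem cells of the KH2 line (C57BL/6 x 129/Sv), grown in serum with LIF, gave 12 poly(A) libraries. They were 2 each of a knockout of all 3 readers (triple knockout), a Mettl3 knockout, Ythdf3, Ythdf2 and Ythdf1 single knockouts, and wild type. GV oocytes, collected per mouse and sequenced with SMART-seq2, gave 3 libraries from Mettl3f/f females carrying Zp3-Cre and 4 from Cre-negative females (BDF1 X C57BL/6 X Jax#003651). The Zp3 promoter is active in growing oocytes, so surrounding somatic cells and earlier oocytes keep Mettl3 by design. Post-GV oocytes (CB6F1 X C57BL/6, SMART-seq2) gave 2 Ythdf2-/- and 3 Ythdf2+/- libraries, whose controls thus also lack 1 Ythdf2 allele. Sorted round spermatids, from mice of the same CB6F1 X C57BL/6 background, gave 2 Ythdf2-/- libraries and 1 Ythdf2+/+ library, made after ribosomal RNA removal. The sources used here give neither the age of the animals nor the number of clones behind each stem cell line.

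ATF4 is a bZIP transcription factor whose mRNA is translated more when kinases such as GCN2 or PERK phosphorylate the initiation factor eIF2, which lowers most other translation. Its targets import and make amino acids, charge tRNAs and handle stress, among them the feedback regulator Trib3, the glutathione-degrading enzyme Chac1 and the related factors Atf3, Ddit3 (CHOP) and Atf5. ATF4 often binds with a C/EBP partner at a composite site, the C/EBP-ATF response element, also called the amino acid response element. The amount of ATF4 protein is thus set in large part by translation.

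The core of this element, TGATGNAA on either strand, was searched in RefSeq promoters (GRCm38.p6, 250 bases before to 50 after each start). A promoter was found for 34 of the 43 genes. The core was present for 15 of these 34 genes (44.1%), against 1219 of 27025 genes with a promoter (4.51%). By role, it was present for 6 of 14 regulators, 3 of 9 synthesis enzymes, 1 of 3 transporters and 5 of 8 tRNA genes. Among members that rose in Mettl3 knockout stem cells 4 of 12 held it (33.3%), against 10 of 20 tested and uncalled members (50%). The match is a description of letters in a window, not a binding site. Printed are 6 promoters with the core in capitals, those of the core-holding members with the smallest p between triple and Mettl3 knockout stem cells, the comparison with most called members. Trib3 lies at chr2:152344011-152344310, minus strand, with its core 14 bases after the RefSeq start. Nupr1 (chr7:126625421-126625720, minus strand), Chac1 (chr2:119350992-119351291, plus strand), Herpud1 (chr8:94386179-94386478, plus strand) and Pck2 (chr14:55540016-55540315, plus strand) hold it 110, 193, 112 and 103 bases before the start. In these 5 promoters the core reads on the strand opposite the gene. Asns (chr6:7693160-7693459, minus strand) holds it on its own strand, 23 bases before the start.
Trib3: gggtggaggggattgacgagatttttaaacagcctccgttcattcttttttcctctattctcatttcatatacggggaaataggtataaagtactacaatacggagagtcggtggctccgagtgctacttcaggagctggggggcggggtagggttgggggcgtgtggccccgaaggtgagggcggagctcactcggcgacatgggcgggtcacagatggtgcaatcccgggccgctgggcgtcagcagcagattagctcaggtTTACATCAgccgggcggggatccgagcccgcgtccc
Nupr1: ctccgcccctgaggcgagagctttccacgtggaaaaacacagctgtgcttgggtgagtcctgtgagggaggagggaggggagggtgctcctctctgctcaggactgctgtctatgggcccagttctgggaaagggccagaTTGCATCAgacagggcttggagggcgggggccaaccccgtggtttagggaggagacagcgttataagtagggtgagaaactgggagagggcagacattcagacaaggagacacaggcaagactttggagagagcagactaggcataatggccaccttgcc
Chac1: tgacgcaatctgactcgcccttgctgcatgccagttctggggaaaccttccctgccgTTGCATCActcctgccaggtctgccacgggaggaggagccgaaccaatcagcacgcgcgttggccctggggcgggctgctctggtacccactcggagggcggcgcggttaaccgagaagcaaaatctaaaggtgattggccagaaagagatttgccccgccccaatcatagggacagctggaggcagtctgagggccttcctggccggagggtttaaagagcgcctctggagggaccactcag
Herpud1: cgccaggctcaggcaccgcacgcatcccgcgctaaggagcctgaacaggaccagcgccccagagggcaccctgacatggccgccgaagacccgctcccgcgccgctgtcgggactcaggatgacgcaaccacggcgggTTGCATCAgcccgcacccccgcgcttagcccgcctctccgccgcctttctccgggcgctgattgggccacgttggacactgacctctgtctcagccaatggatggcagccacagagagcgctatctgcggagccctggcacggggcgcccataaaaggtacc
Pck2: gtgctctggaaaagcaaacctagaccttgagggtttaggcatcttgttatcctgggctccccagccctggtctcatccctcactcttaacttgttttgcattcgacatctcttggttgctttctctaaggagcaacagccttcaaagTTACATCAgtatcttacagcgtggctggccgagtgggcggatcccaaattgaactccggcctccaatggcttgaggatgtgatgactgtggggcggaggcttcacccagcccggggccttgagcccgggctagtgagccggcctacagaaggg
Asns: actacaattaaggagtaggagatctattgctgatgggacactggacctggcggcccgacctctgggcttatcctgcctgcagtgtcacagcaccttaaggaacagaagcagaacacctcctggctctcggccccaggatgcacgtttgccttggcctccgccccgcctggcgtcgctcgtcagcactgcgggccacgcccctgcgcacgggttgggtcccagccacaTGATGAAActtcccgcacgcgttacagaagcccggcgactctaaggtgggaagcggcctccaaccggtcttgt

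Library depth was lowest in stem cells, at 612598 to 1111764 assigned counts. GV oocyte libraries held 6484397 to 18181397 counts, post-GV ones 12409822 to 25015081, and those of spermatids 18843689 to 32759740. Mettl3 counts fitted the labels: the gene averaged 16.6 ± 2.01 CPM (counts scaled to library size by the TMM method) in Mettl3 knockout stem cells, against 139 ± 2.29 CPM in wild type (SD, n = 2 each), and 1.91 ± 1.37 CPM (SD, n = 3) in Cre-positive GV oocytes, against 27.2 ± 11.7 CPM (SD, n = 4) in Cre-negative ones. Gene-level counts of Ythdf1, Ythdf2 and Ythdf3 were not called lower in the libraries labelled as their knockouts against their controls, so they do not check those labels. Some values went against the label: Ythdf2 measured 197 and 156 CPM in Ythdf2-/- post-GV oocytes, against 90.1, 73.2 and 132 CPM in Ythdf2+/- ones, and 35.9 and 30.1 CPM in triple knockout, against 26.1 and 25.0 CPM in wild type stem cells. In the stem cells labelled Ythdf2 knockout, Ythdf2 was lower than in wild type without a call, at 18.1 and 10.5 CPM. Its log2 fold change there was -0.85 (edgeR adjusted p = 0.216). Every direction given below for a Ythdf knockout rests on the label. Within each of the 6 stem cell genotypes, the 2 libraries differed by less than counting error (chi-square per gene of 0.700 to 0.839, where 1 is counting error). The sources do not say that they were separate cultures, so stem cell p-values may measure technical spread alone. Counted as 1 sample per genotype, they would leave no test; libraries are therefore shown singly. Stem cell markers (10 of 10 in the table) summed to 4152 to 4950 CPM over the 12 stem cell libraries, oocyte markers to 19829 to 26509 CPM in Cre-positive and 14389 to 27116 CPM in Cre-negative GV oocytes, and spermatid markers to 9880.3 and 14314 CPM in Ythdf2-/- and 8568 CPM in Ythdf2+/+ spermatids.

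Calls are from edgeR's quasi-likelihood test, with Benjamini-Hochberg adjusted p values below 0.05 over the tested genes of each table. In Mettl3 knockout stem cells 15 of 40 members rose and none fell against wild type (37.5%), where 30.4% of all tested genes were called, 15.2% up and 15.1% down. In Cre-positive GV oocytes 6 of 40 rose and 5 fell (27.5%), against 28.8% of all genes (15.4% up, 13.4% down), so the share of members called there was near that of all genes. Triple knockout stem cells had 3 members up and 5 down against wild type (20%), where 25.1% of all genes were called (13.3% up, 11.8% down). Set against Mettl3 knockout cells, the triple knockout had 2 up and 16 down (45%), where 19% of all genes were called (10.5% up, 8.5% down). The 5 stem cell comparisons with wild type share the same 2 wild type libraries, and the triple against Mettl3 comparison shares its libraries with them too.

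**Figure D1:**
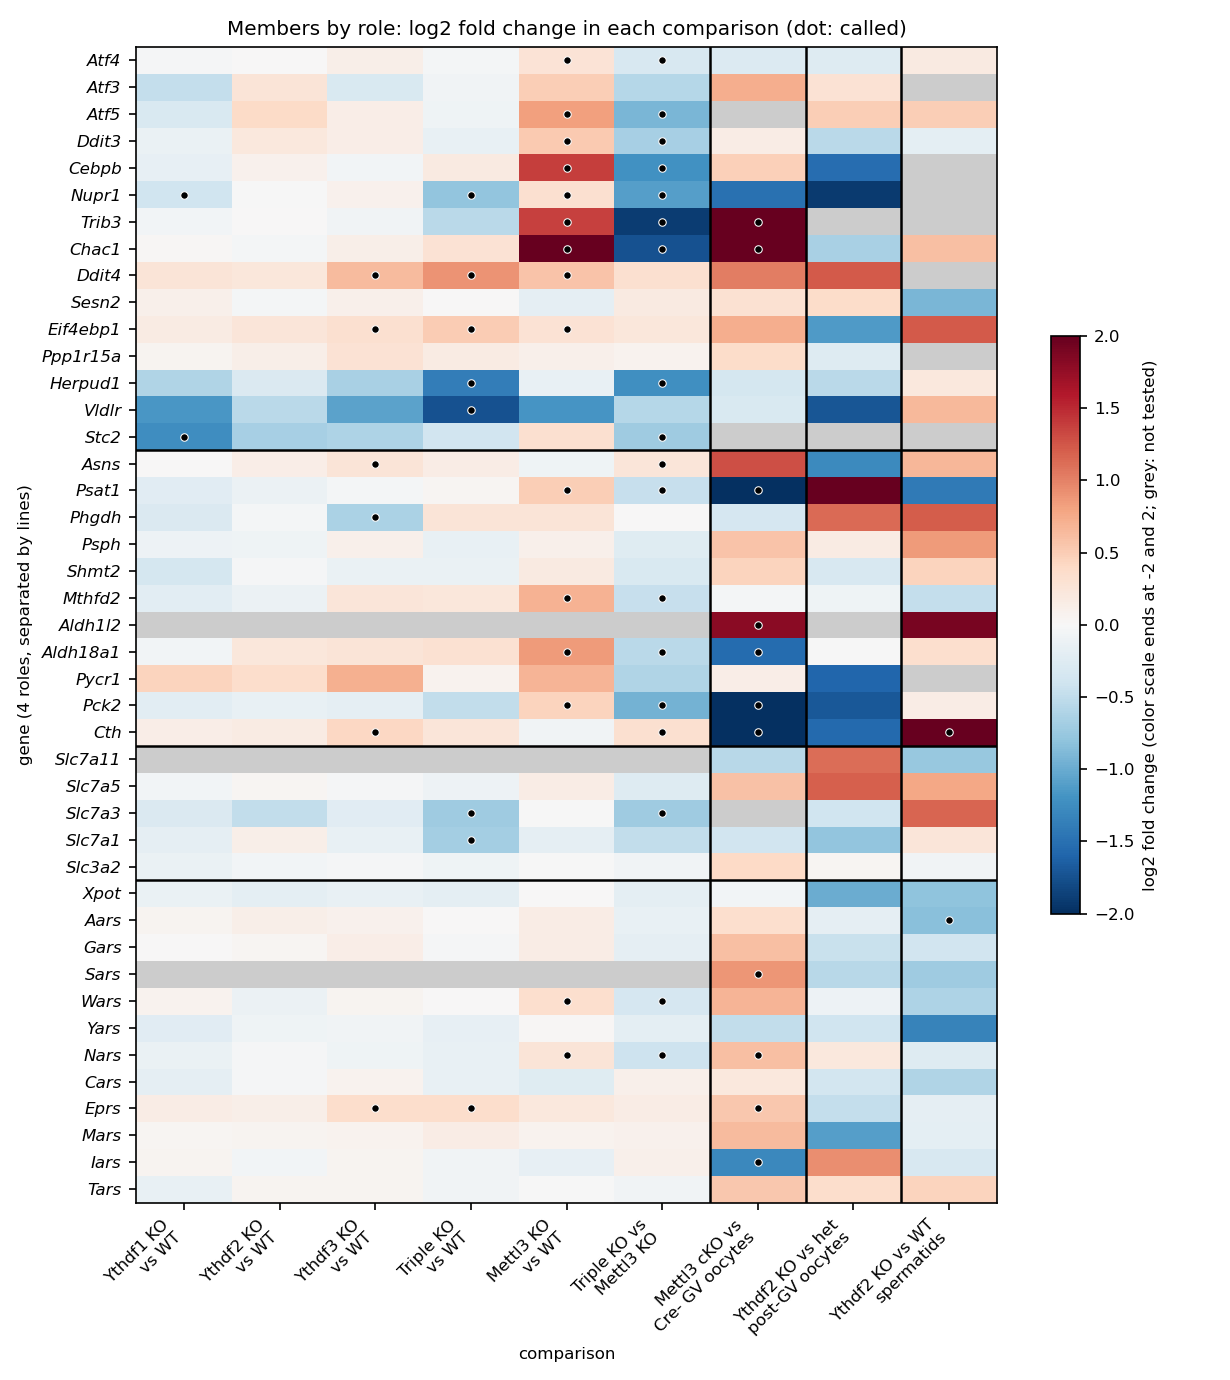
Log2 fold change of each of the 43 members (rows, by role) in each of the 9 comparisons (columns); dots mark called genes, grey cells were not tested, and colours end at -2 and 2. The Mettl3 knockout stem cell column holds 15 called members, all up, and the triple against Mettl3 knockout column holds 18, of which 16 are down.

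In Mettl3 knockout stem cells 9 of 15 regulators rose against wild type, as did 15.2% of all tested genes. The regulators had the highest share of the 4 roles. Their median log2 fold change was 0.32, and that of the synthesis enzymes 0.36. Chac1 measured 90.3 and 99.6 CPM in the Mettl3 knockout libraries, against 22.5 and 24.1 CPM in wild type (log2 fold change 2.03, SE 0.20, adjusted p = 1.46e-13). Trib3, a pseudokinase that restrains ATF4, measured 141 and 146 CPM in Mettl3 knockout cells, against 63.1 and 49.0 CPM in wild type (log2 fold change 1.36, SE 0.13, adjusted p = 1.42e-13). Cebpb, a possible ATF4 partner, measured 46.0 and 39.8 CPM in Mettl3 knockout, against 14.4 and 17.8 CPM in wild type (log2 fold change 1.39, SE 0.25, adjusted p = 2.96e-05). For these 3 genes both knockout libraries lay above every wild type library, by more than 2-fold between means. Atf5 measured 217 and 211 CPM in Mettl3 knockout cells, against 134 and 107 CPM in wild type (log2 fold change 0.82, SE 0.10, adjusted p = 1.22e-09). Atf4 itself moved less, with 478 and 467 CPM in Mettl3 knockout cells, against 393 and 387 CPM in wild type (log2 fold change 0.28, SE 0.07, adjusted p = 0.00136).

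The other regulators that rose had log2 fold changes from 0.29 to 0.57. Ddit3 measured 141 and 168 CPM in Mettl3 knockout cells, against 108 and 111 CPM in wild type (log2 fold change 0.52, SE 0.11, adjusted p = 0.000781). Its exons share bases with Mars on the opposite strand, and whether reads were counted by strand is not given in the sources used here. Opposite-strand bases are also shared by Atf5 (with Il4i1 and Nup62), Cebpb (with Tmem189) and Pck2 (with Gm10876). Ddit4, an inhibitor of the growth kinase complex mTORC1, measured 143 and 109 CPM in Mettl3 knockout, against 78.4 and 87.4 CPM in wild type (log2 fold change 0.57, SE 0.12, adjusted p = 0.00122). Eif4ebp1, which holds back cap-dependent translation, measured 366 and 367 CPM in Mettl3 knockout, against 289 and 310.3 CPM in wild type (log2 fold change 0.29, SE 0.07, adjusted p = 0.00331). Nupr1, a small stress-induced nuclear protein, measured 194 and 206 CPM in Mettl3 knockout, against 165 and 159 CPM in wild type (log2 fold change 0.31, SE 0.09, adjusted p = 0.0236). For Ddit3, Ddit4, Eif4ebp1 and Nupr1 the groups did not overlap. Atf3, Sesn2, Ppp1r15a, Herpud1, Vldlr and Stc2 were not called, with log2 fold changes from -1.18 (Vldlr) to 0.50 (Atf3).

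Among synthesis enzymes, 4 of 10 rose, against 15.2% of all tested genes. Aldh18a1, which starts proline synthesis from glutamate, measured 205 and 189 CPM in Mettl3 knockout cells, against 109 and 108 CPM in wild type (log2 fold change 0.85, SE 0.10, adjusted p = 6.18e-10). Mthfd2, of mitochondrial folate metabolism, measured 161 and 162 CPM in Mettl3 knockout, against 109 and 90.9 CPM in wild type (log2 fold change 0.69, SE 0.11, adjusted p = 4.87e-06). The serine pathway was uneven: Psat1, its transaminase, measured 383 and 342 CPM in Mettl3 knockout, against 259 and 251 CPM in wild type (log2 fold change 0.49, SE 0.08, adjusted p = 4.89e-07). Phgdh, which opens that pathway, measured 87.1 and 110.1 CPM in Mettl3 knockout, against 74.8 and 92.7 CPM in wild type, with overlapping libraries (log2 fold change 0.26, SE 0.14, adjusted p = 0.213). Psph and Shmt2 were not called (log2 fold changes 0.09 and 0.18). Pck2, the mitochondrial PEP carboxykinase, measured 65.7 and 92.5 CPM in Mettl3 knockout, against 62.2 and 57.1 CPM in wild type (log2 fold change 0.45, SE 0.15, adjusted p = 0.0472). Asns, the asparagine synthetase often used as an ATF4 marker, stayed uncalled, with 654 and 616 CPM in Mettl3 knockout, against 674 and 674 CPM in wild type (log2 fold change -0.09, SE 0.06, adjusted p = 0.273).

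None of the 4 tested transporters was called, and 2 of 11 tRNA genes rose, against 15.2% of all tested genes. Wars, the tryptophanyl-tRNA synthetase, measured 304 and 312 CPM in Mettl3 knockout cells, against 252 and 234 CPM in wild type (log2 fold change 0.34, SE 0.08, adjusted p = 0.00148). Nars, the asparaginyl-tRNA synthetase, measured 249.7 and 221 CPM in Mettl3 knockout, against 199 and 189.9 CPM in wild type (log2 fold change 0.26, SE 0.09, adjusted p = 0.0431). The rises thus lay mostly in regulators, and the tested transporters ranged from -0.18 (Slc7a1) to 0.15 (Slc7a5) on the log2 scale. The median over 40 members was 0.19, against 0.00 over all tested genes. Calls of 8 members (Atf4, Atf5, Cebpb, Trib3, Chac1, Psat1, Mthfd2 and Aldh18a1) held in each of the 4 fits that left out 1 library. Without Mettl3 knockout library B, Ddit3, Nupr1, Eif4ebp1, Pck2, Wars and Nars lost their calls and Vldlr gained one, which gave 10 called. DESeq2 called 7, all of the stable 8 except Atf4.

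**Figure D2:**
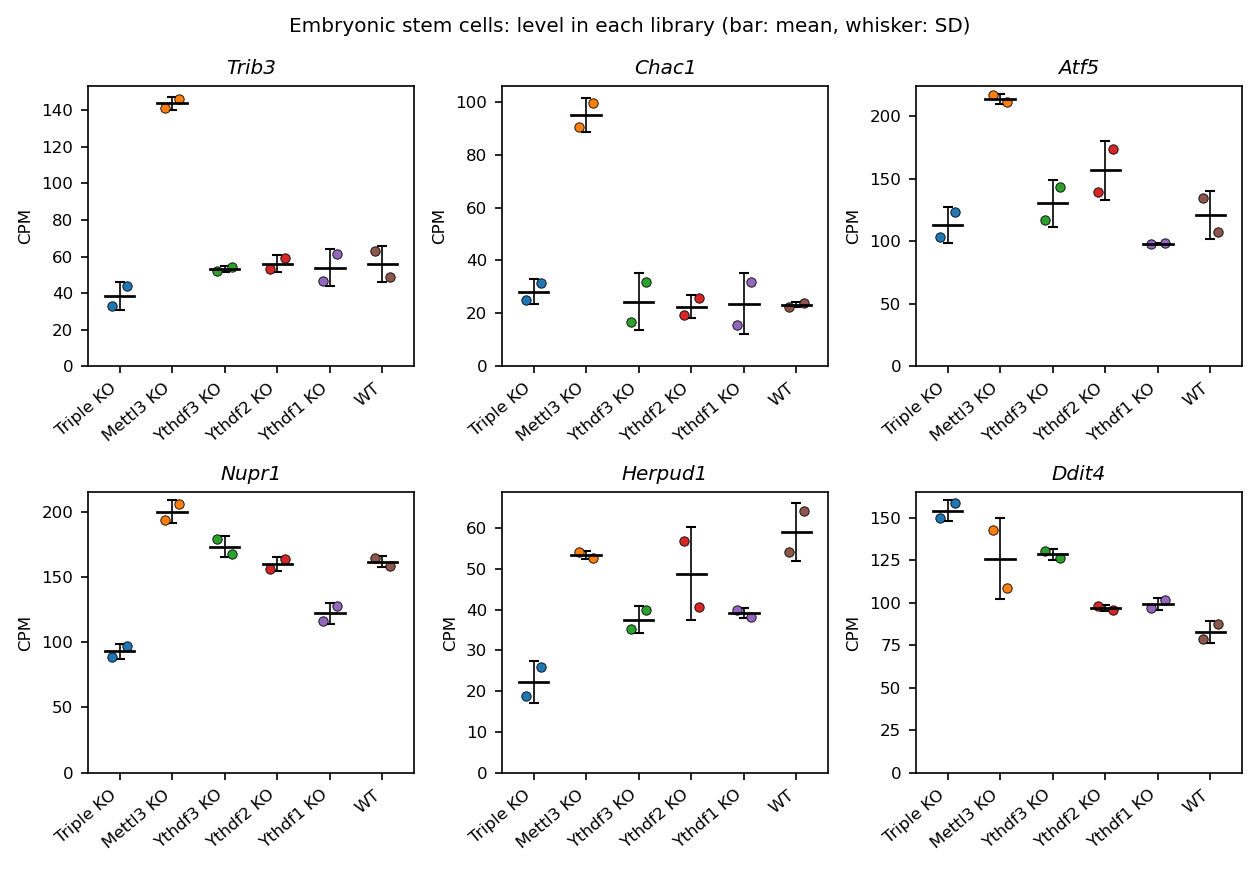
CPM of Trib3, Chac1, Atf5, Nupr1, Herpud1 and Ddit4 in each of the 12 stem cell libraries (points), by genotype; bars are group means and whiskers SD (n = 2). Trib3, Chac1 and Atf5 stand highest in the Mettl3 knockout libraries, while Nupr1 and Herpud1 stand lowest in the triple knockout.

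Loss of all 3 readers gave another pattern against wild type, with 2 of 15 regulators up and 3 down, no synthesis enzyme of 10 called, 2 of 4 transporters down and 1 of 11 tRNA genes up. Among all tested genes 13.3% were called up and 11.8% down. Ddit4 measured 149.7 and 159 CPM in triple knockout cells, against 78.4 and 87.4 CPM in wild type (log2 fold change 0.90, SE 0.12, adjusted p = 2.82e-08). Eif4ebp1 measured 437 and 419 CPM in triple knockout, against 289 and 310.3 CPM in wild type (log2 fold change 0.51, SE 0.07, adjusted p = 4.74e-08). Eprs, the glutamyl-prolyl-tRNA synthetase, measured 342 and 282 CPM in triple knockout, against 245 and 241 CPM in wild type (log2 fold change 0.35, SE 0.08, adjusted p = 0.0018). All 3 genes that rose had triple knockout libraries above both wild type ones. Herpud1, which serves disposal of misfolded proteins at the endoplasmic reticulum (ER), measured 18.7 and 26.0 CPM in triple knockout, against 54.1 and 64.2 CPM in wild type (log2 fold change -1.38, SE 0.22, adjusted p = 3.49e-06). Nupr1 measured 88.9 and 97.2 CPM in triple knockout, against 165 and 159 CPM in wild type (log2 fold change -0.79, SE 0.11, adjusted p = 8.28e-07). Nupr1 thus fell here while it rose in the Mettl3 knockout.

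The 2 transporters that fell both carry cationic amino acids such as arginine. Slc7a3 measured 60.8 and 67.1 CPM in triple knockout cells, against 102 and 109 CPM in wild type (log2 fold change -0.71, SE 0.14, adjusted p = 0.000493). Slc7a1 measured 56.1 and 60.2 CPM in triple knockout, against 102 and 84.7 CPM in wild type (log2 fold change -0.67, SE 0.15, adjusted p = 0.00217). Vldlr, a lipoprotein receptor, measured 3.12 and 4.11 CPM in triple knockout, against 12.6 and 12.5 CPM in wild type (log2 fold change -1.74, SE 0.62, adjusted p = 0.0309). It is the lowest of the called members and lost its call in each of the 4 fits without 1 library. Slc7a1 lost its call without wild type library A and Eprs without triple knockout library A, in each case with 6 members called. Atf4 (389.9 and 369.6 CPM), Ddit3 (101 and 97.2 CPM), Chac1 (25.0 and 31.5 CPM) and Phgdh (104 and 97.2 CPM) were uncalled in the triple knockout, with log2 fold changes of -0.04, -0.14, 0.29 and 0.26. DESeq2 called 4 members, namely Nupr1, Ddit4, Eif4ebp1 and Herpud1. The member median was -0.07, against 0.00 over all genes.

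The triple knockout was also set directly against the Mettl3 knockout, which compares 2 libraries with 2. As in the other stem cell comparisons, the p-values may measure technical spread alone. By role, 9 of 15 regulators were lower in the triple knockout, synthesis enzymes had 2 up and 4 down of 10, transporters 1 down of 4 and tRNA genes 2 down of 11. Among all tested genes 10.5% were called up and 8.5% down. Trib3 measured 32.8 and 43.8 CPM in triple knockout cells, against 141 and 146 CPM in Mettl3 knockout cells (log2 fold change -1.90, SE 0.16, adjusted p = 2.3e-15). Chac1 measured 25.0 and 31.5 CPM in triple knockout, against 90.3 and 99.6 CPM in Mettl3 knockout (log2 fold change -1.75, SE 0.21, adjusted p = 9.48e-10). Nupr1 measured 88.9 and 97.2 CPM in triple knockout, against 194 and 206 CPM in Mettl3 knockout (log2 fold change -1.11, SE 0.12, adjusted p = 6.55e-12). These 3 genes were more than 2-fold lower between means, with no overlap of libraries. Atf5 measured 103 and 123 CPM in triple knockout, against 217 and 211 CPM in Mettl3 knockout (log2 fold change -0.91, SE 0.12, adjusted p = 6.6e-09). Ddit3 measured 101 and 97.2 CPM in triple knockout, against 141 and 168 CPM in Mettl3 knockout (log2 fold change -0.66, SE 0.12, adjusted p = 0.000307). Atf4 measured 389.9 and 369.6 CPM in triple knockout, against 478 and 467 CPM in Mettl3 knockout (log2 fold change -0.32, SE 0.08, adjusted p = 0.00194). Atf4 thus differed less than Atf5. Cebpb measured 15.6 and 20.5 CPM in triple knockout, against 46.0 and 39.8 CPM in Mettl3 knockout (log2 fold change -1.21, SE 0.28, adjusted p = 0.00225). Herpud1 measured 18.7 and 26.0 CPM in triple knockout, against 54.2 and 52.7 CPM in Mettl3 knockout (log2 fold change -1.23, SE 0.24, adjusted p = 0.000355). Stc2, a secreted stanniocalcin, measured 39.0 and 41.1 CPM in triple knockout, against 64.1 and 66.8 CPM in Mettl3 knockout (log2 fold change -0.71, SE 0.20, adjusted p = 0.021).

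The 4 enzymes that rose in the Mettl3 knockout were lower in the triple knockout than in Mettl3 knockout cells. The same Mettl3 knockout libraries chose these enzymes, so this is no separate result. None of the 4 was called in the triple knockout against wild type. Psat1 measured 240.2 and 279 CPM in triple knockout, against 383 and 342 CPM in Mettl3 knockout (log2 fold change -0.46, SE 0.09, adjusted p = 5.92e-05). Pck2 measured 35.9 and 47.9 CPM in triple knockout, against 65.7 and 92.5 CPM in Mettl3 knockout (log2 fold change -0.94, SE 0.19, adjusted p = 0.000408). Aldh18a1 measured 140.4 and 129 CPM in triple knockout, against 205 and 189 CPM in Mettl3 knockout (log2 fold change -0.54, SE 0.11, adjusted p = 0.000801). Pck2 differed most of these. Mthfd2 measured 119 and 116 CPM in triple knockout, against 161 and 162 CPM in Mettl3 knockout (log2 fold change -0.46, SE 0.12, adjusted p = 0.0133). Asns and Cth, which releases cysteine from cystathionine, went the other way. Asns measured 783 and 709 CPM in triple knockout, against 654 and 616 CPM in Mettl3 knockout (log2 fold change 0.23, SE 0.07, adjusted p = 0.00762). Cth measured 215 and 244 CPM in triple knockout, against 217 and 162 CPM in Mettl3 knockout, and these libraries overlapped (log2 fold change 0.32, SE 0.10, adjusted p = 0.0417). 

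The transporter Slc7a3 and the synthetases Nars and Wars were lower in the triple knockout. Slc7a3 measured 60.8 and 67.1 CPM in triple knockout, against 102 and 107 CPM in Mettl3 knockout (log2 fold change -0.70, SE 0.15, adjusted p = 0.00237). Nars measured 182 and 169.7 CPM in triple knockout, against 249.7 and 221 CPM in Mettl3 knockout (log2 fold change -0.41, SE 0.10, adjusted p = 0.00667). Wars measured 246 and 244 CPM in triple knockout, against 304 and 312 CPM in Mettl3 knockout (log2 fold change -0.33, SE 0.09, adjusted p = 0.0109). None of these 3 genes overlapped between the genotypes. Phgdh showed a log2 fold change of 0.00 (SE 0.15), the smallest of the 40 members in size. Calls of 7 members (Atf5, Nupr1, Trib3, Chac1, Herpud1, Psat1 and Aldh18a1) held in each leave-out. Without Mettl3 knockout library B 10 members were called, without triple knockout library B 12 and without triple knockout library A 13. DESeq2 called 5, namely Atf5, Nupr1, Trib3, Chac1 and Herpud1. Feeder fibroblast markers, of which 4 of 8 were in the table, summed to 81.1 and 87.6 CPM in triple knockout and 49.3 to 60.9 CPM in Mettl3 knockout libraries, and their part in these results was not tested.

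Taken over the 15 genes that rose in the Mettl3 knockout, the median ratio to the wild type mean was 1.501 and 1.53 in the 2 Mettl3 knockout libraries, which chose the genes. It was 0.967 and 1.02 in the triple knockout libraries and 0.896 to 1.07 over the 6 single knockout libraries. In the triple knockout against wild type, 2 of these 15 rose and 1 fell, where 13.3% of all tested genes rose and 11.8% fell.

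The single reader knockouts moved few members. In the cells labelled Ythdf1 knockout none rose and 2 of 40 fell (5%), where 3.45% of all genes were called (1.95% up, 1.5% down). Stc2 measured 20 and 24.1 CPM in Ythdf1 knockout, against 59.5 and 45.5 CPM in wild type (log2 fold change -1.24, SE 0.21, adjusted p = 7.62e-05). Nupr1 measured 117 and 128 CPM in Ythdf1 knockout, against 165 and 159 CPM in wild type (log2 fold change -0.40, SE 0.10, adjusted p = 0.0325). Nupr1 lost its call whichever of the 4 libraries was left out, which leaves 1 called member each time. Shmt2, the mitochondrial enzyme that splits serine, stood next at 127 and 137 CPM in Ythdf1 knockout, against 174 and 164 CPM in wild type (log2 fold change -0.36, SE 0.10, adjusted p = 0.0639). DESeq2 called none of the members here.

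In the cells labelled Ythdf2 knockout no member of 40 was called by edgeR or DESeq2, and 5 (12.5%) had an unadjusted p under 0.05, against 11.8% of all genes. Among all genes 1.91% were called (0.837% up, 1.07% down). The smallest p values belonged to Slc7a3, Atf5 and Eif4ebp1. Slc7a3 measured 73.7 and 75.7 CPM in Ythdf2 knockout, against 102 and 109 CPM in wild type (log2 fold change -0.49, SE 0.12, adjusted p = 0.0711). Atf5 measured 139.6 and 173 CPM in Ythdf2 knockout, against 134 and 107 CPM in wild type (log2 fold change 0.38, SE 0.11, adjusted p = 0.0821), and Atf5 was called without wild type library A. Eif4ebp1 measured 344 and 362 CPM in Ythdf2 knockout, against 289 and 310.3 CPM in wild type (log2 fold change 0.24, SE 0.07, adjusted p = 0.114).

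In the cells labelled Ythdf3 knockout 5 of 40 members rose and 1 fell (15%), where 2.84% of all genes were called (1.74% up, 1.1% down). Ddit4 measured 131 and 126 CPM in Ythdf3 knockout, against 78.4 and 87.4 CPM in wild type (log2 fold change 0.63, SE 0.12, adjusted p = 0.00432). Eif4ebp1 measured 375 and 372 CPM in Ythdf3 knockout, against 289 and 310.3 CPM in wild type (log2 fold change 0.32, SE 0.08, adjusted p = 0.0142). These 2 restraints on growth signalling and translation, and Eprs, also rose in the triple knockout. Eprs measured 323 and 302 CPM in Ythdf3 knockout, against 245 and 241 CPM in wild type (log2 fold change 0.36, SE 0.08, adjusted p = 0.0109). Asns measured 835 and 776 CPM in Ythdf3 knockout, against 674 and 674 CPM in wild type (log2 fold change 0.25, SE 0.06, adjusted p = 0.00653). Cth measured 268 and 249.9 CPM in Ythdf3 knockout, against 195 and 193 CPM in wild type (log2 fold change 0.41, SE 0.09, adjusted p = 0.00745). Phgdh went down against these rises. It measured 61.9 and 47.9 CPM in Ythdf3 knockout, against 74.8 and 92.7 CPM in wild type (log2 fold change -0.63, SE 0.17, adjusted p = 0.0415). None of the 6 calls held in all 4 leave-outs: 1 member was called without wild type library A, 3 without wild type library B, none without Ythdf3 knockout library A and 1 without Ythdf3 knockout library B. DESeq2 called none.

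Atf4 measured 413 and 433 CPM in Ythdf3, 398 and 389 CPM in Ythdf2 and 363 and 406 CPM in Ythdf1 knockout libraries, with wild type at 393 and 387 CPM. Ddit3 measured 129 and 113 CPM in Ythdf3, 123 and 130.4 CPM in Ythdf2 and 93.3 and 106 CPM in Ythdf1 knockout libraries, with wild type at 108 and 111 CPM. Chac1 measured 16.7 and 31.9 CPM in Ythdf3, 19.4 and 25.6 CPM in Ythdf2 and 15.6 and 31.7 CPM in Ythdf1 knockout libraries, with wild type at 22.5 and 24.1 CPM. None of these 3 genes was called in a single knockout, and Chac1 spread by about 2-fold between the 2 libraries of the Ythdf3 and Ythdf1 knockouts. Phgdh measured 84.0 and 79.1 CPM in Ythdf2 and 55.5 and 80.9 CPM in Ythdf1 knockout libraries, with wild type at 74.8 and 92.7 CPM.

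In GV oocytes lacking Mettl3, Chac1 and Trib3 rose, and the enzymes Cth, Aldh18a1, Pck2 and Psat1 fell. Of the tRNA synthetases, Nars, Eprs and Sars rose and Iars fell. Chac1 measured 43.2, 30.2 and 43.6 CPM in Cre-positive oocytes, against 4.93, 3.43, 1.89 and 4.40 CPM in Cre-negative ones (log2 fold change 3.40, SE 0.36, adjusted p = 0.000434). Trib3 measured 5.37, 4.31 and 5.41 CPM in Cre-positive, against 1.04, 0.734, 0.420 and 1.87 CPM in Cre-negative oocytes (log2 fold change 2.28, SE 0.54, adjusted p = 0.0123). They were the called regulators among 13 tested. Atf4 measured 104, 97.7 and 187 CPM in Cre-positive, against 109.8, 152, 178 and 184 CPM in Cre-negative oocytes (log2 fold change -0.27, SE 0.28, adjusted p = 0.504). Ddit3 measured 40.2, 36.9 and 15.2 CPM in Cre-positive, against 38.2, 27.3, 17.6 and 28.5 CPM in Cre-negative oocytes (log2 fold change 0.14, SE 0.38, adjusted p = 0.8). Both overlapped between the groups.

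Of 11 synthesis enzymes, 4 fell and 1 rose, where 28.8% of all tested genes were called (15.4% up, 13.4% down). Cth measured 1.29, 4.82 and 5.71 CPM in Cre-positive, against 24.0, 47.8, 27.2 and 27.5 CPM in Cre-negative oocytes (log2 fold change -3.03, SE 0.53, adjusted p = 0.00318). Aldh18a1 measured 9.17, 13.1 and 12.6 CPM in Cre-positive, against 35.6, 38.5, 36.7 and 24.1 CPM in Cre-negative oocytes (log2 fold change -1.54, SE 0.28, adjusted p = 0.00397). Both fell with no overlap. Psat1 measured 0.168, 1.09 and 0.601 CPM in Cre-positive, against 1.32, 5.75, 17.4 and 1.87 CPM in Cre-negative oocytes (log2 fold change -3.39, SE 1.04, adjusted p = 0.0362). Pck2 measured 0.0559, 0.772 and 0.150 CPM in Cre-positive, against 2.99, 1.10, 6.72 and 1.78 CPM in Cre-negative oocytes (log2 fold change -3.16, SE 0.95, adjusted p = 0.0328). Counts in the Cre-positive libraries were few, at 3, 17 and 4 for Psat1 and 1, 12 and 1 for Pck2. The size of these 2 falls is thus uncertain. Psat1 and Pck2 were highest in control library 3. Aldh1l2, a mitochondrial folate dehydrogenase, measured 3.86, 7.59 and 9.91 CPM in Cre-positive, against 1.32, 1.59, 3.88 and 1.31 CPM in Cre-negative oocytes (log2 fold change 1.81, SE 0.54, adjusted p = 0.0324). Control 3 was again the highest control, and the groups overlapped. Exons of Aldh1l2 share bases with D10Wsu102e on the opposite strand. Phgdh measured 23.1, 11.3 and 8.11 CPM in Cre-positive, against 28.5, 12.1, 13.4 and 17.8 CPM in Cre-negative oocytes (log2 fold change -0.33, SE 0.44, adjusted p = 0.595), so of the serine pathway Psat1 alone was called, with Psph at a log2 fold change of 0.58.

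Of 12 tRNA genes, 3 rose and 1 fell, where 28.8% of all tested genes were called (15.4% up, 13.4% down). Iars, the isoleucyl-tRNA synthetase, measured 145, 113 and 139 CPM in Cre-positive, against 346, 287, 308 and 355 CPM in Cre-negative oocytes (log2 fold change -1.29, SE 0.19, adjusted p = 0.00163). Nars measured 296, 267 and 259.9 CPM in Cre-positive, against 199.7, 176, 171 and 176 CPM in Cre-negative oocytes (log2 fold change 0.60, SE 0.17, adjusted p = 0.0258). Eprs measured 202, 204 and 177 CPM in Cre-positive, against 138, 132, 133 and 130.3 CPM in Cre-negative oocytes (log2 fold change 0.54, SE 0.17, adjusted p = 0.0365). The 3 genes had no overlap between groups, and Iars alone was lower. Sars, the seryl-tRNA synthetase, measured 123, 85.3 and 76.2 CPM in Cre-positive, against 75.1, 46.9, 34.8 and 50.1 CPM in Cre-negative oocytes (log2 fold change 0.88, SE 0.29, adjusted p = 0.0473). None of the 4 tested transporters was called with the settings used here. Slc7a11, the cystine importer, measured 192, 264 and 274 CPM in Cre-positive, against 307, 373, 372 and 383 CPM in Cre-negative oocytes (log2 fold change -0.56, SE 0.20, adjusted p = 0.0566). It was called lower by DESeq2 (log2 fold change -0.64, adjusted p = 0.0201), with RLE scaling, with a mean CPM of at least 20 and with the replicate block (-0.54, adjusted p = 0.0421). The member median was 0.35, against 0.04 over all genes.

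**Figure D3:**
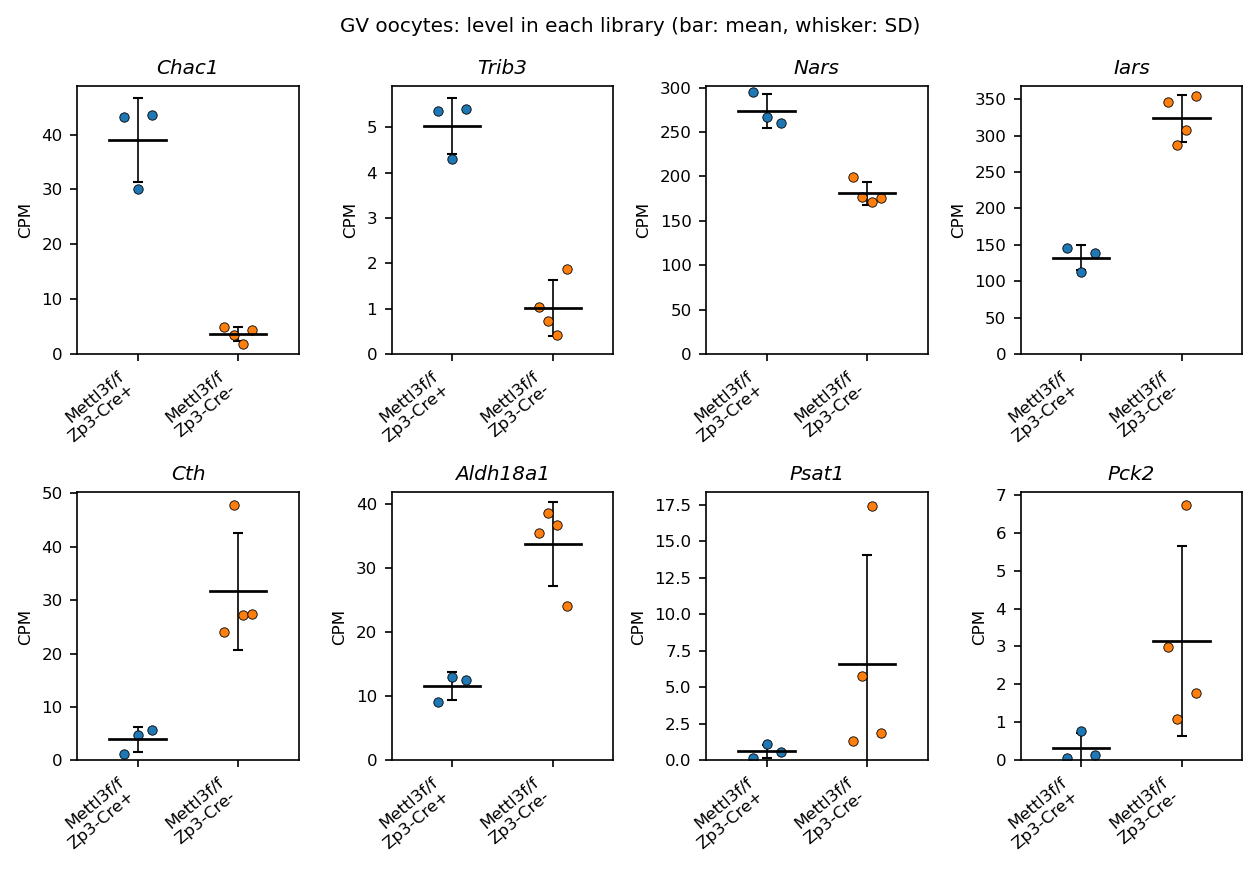
CPM of Chac1, Trib3, Nars, Iars, Cth, Aldh18a1, Psat1 and Pck2 in each GV oocyte library, Cre-positive (n = 3) left of Cre-negative (n = 4); bars are means and whiskers SD. Chac1, Trib3 and Nars lie higher and the other 5 lower in every Cre-positive library than in every Cre-negative one.

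Granulosa and cumulus cell markers (10 of 10 in the table) moved with the groups. Fshr had 0 counts in Cre-positive library 1, and the others were detected in each library. The list summed to 57.2 to 245 CPM in the 3 Cre-positive libraries and 331 to 4007 CPM in the 4 Cre-negative ones, highest in control 3 (4007 CPM) and control 2 (1407 CPM). In such bulk libraries fewer cells of a type and less RNA per cell cannot be told apart. Without controls 2 and 3, 7 members were called. Chac1 (log2 fold change 2.94), Cth (-2.87), Iars (-1.52), Aldh18a1 (-1.48) and Aldh1l2 (2.30) kept their calls, while Psat1 (-1.48, adjusted p = 0.244), Pck2 (-2.89, adjusted p = 0.0594) and Trib3 (1.67, adjusted p = 0.0536) lost theirs, as did Sars, Nars and Eprs. The Pck2 change was thus about as large as with all controls (-3.16), while that of Psat1 was smaller (-3.39 with all controls). Both changes rest on few counts in the Cre-positive libraries. Eif4ebp1 (1.56) and Asns (1.84) gained calls. Calls of Trib3, Chac1, Aldh18a1, Cth and Iars held in each of the 7 fits without 1 library. The member count was 6 without each of Cre-positive libraries 1, 2 and 3 and without control 2, 7 without control 4, 9 without control 3 and 12 without control 1. Psat1 lost its call whichever Cre-positive library was left out, and without control 2 or control 3.

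The Mettl3 comparisons in stem cells and GV oocytes come from separate libraries, and 37 members were tested in both. Called in both were 6 members. Of all tested genes 30.4% were called in stem cells and 28.8% in GV oocytes. The share of all genes called in both was not computed, so the 6 are not read as more than other genes give. Trib3, Chac1 and Nars were higher in both tissues. Psat1, Aldh18a1 and Pck2 were higher in knockout stem cells and lower in knockout oocytes. Chac1 differed by a log2 fold change of 2.03 in stem cells and 3.40 in GV oocytes. The tables were fitted apart and the differences between tissues were not tested. Without GV controls 2 and 3, Chac1 kept its oocyte call (log2 fold change 2.94). Trib3 (1.67, edgeR adjusted p = 0.0536) and Nars (0.43, edgeR adjusted p = 0.186) lost theirs. In stem cells Nars also lost its call in each fit without 1 library and with DESeq2. Aldh18a1 (0.85 in stem cells, -1.54 in oocytes) kept its oocyte call without controls 2 and 3. Pck2 (0.45 and -3.16) lost its call without them at a similar fold change (-2.89), and for Psat1 (0.49 and -3.39) the oocyte fold change without them was -1.48. Oocyte values of Pck2 and Psat1 rest on few counts in the Cre-positive libraries.

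**Figure D4:**
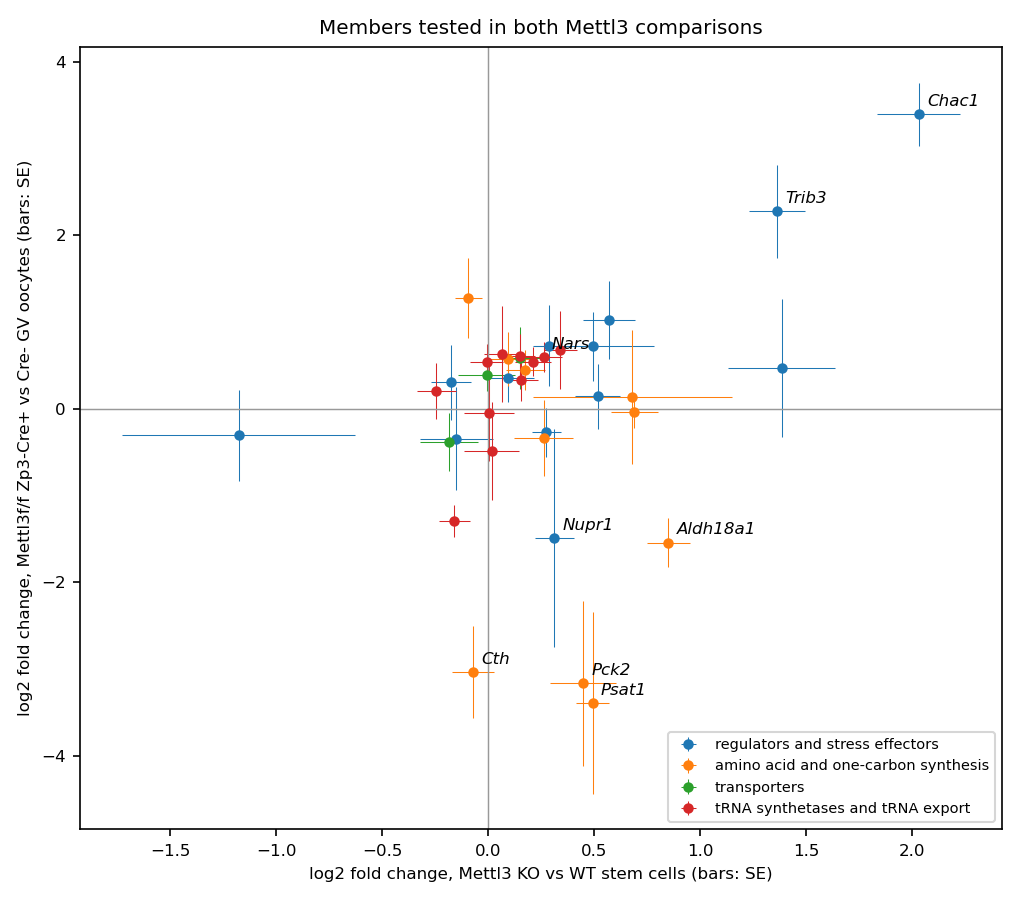
Log2 fold change with SE for the 37 members tested in both tissues, Mettl3 knockout stem cells against wild type on the x axis and Cre-positive against Cre-negative GV oocytes on the y axis, coloured by role. Chac1 and Trib3 lie at the upper right, and Psat1, Pck2 and Aldh18a1 at the lower right.

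In post-GV oocytes none of 40 members was called between Ythdf2-/- and Ythdf2+/- by edgeR or DESeq2. Among all genes edgeR called 0 (0%) and DESeq2 94, and 782 had an unadjusted p under 0.05. Of the members, 1 did (2.5%), against 5.62% of all genes. That member was Cth, at 36.7 and 16.1 CPM in Ythdf2-/-, against 83.9, 73.3 and 75.0 CPM in Ythdf2+/- oocytes (log2 fold change -1.55, SE 0.48, adjusted p = 0.83). Psat1 measured 19.8 and 1.86 CPM in Ythdf2-/-, against 1.28, 3.61 and 0.712 CPM in Ythdf2+/- oocytes (log2 fold change 2.54, SE 1.14, adjusted p = 0.848). Slc7a11 measured 311 and 597 CPM in Ythdf2-/-, against 177, 137 and 317 CPM in Ythdf2+/- oocytes (log2 fold change 1.11, SE 0.51, adjusted p = 0.848). Cth was lower in both knockout libraries than in each heterozygous one, while the other 2 genes overlapped.

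Atf4 measured 41.4 and 43.8 CPM in Ythdf2-/-, against 48.8, 64.0 and 40.3 CPM in Ythdf2+/- oocytes (log2 fold change -0.26, SE 0.39, adjusted p = 0.866). Ddit3 measured 6.28 and 2.404 CPM in Ythdf2-/-, against 7.66, 6.61 and 4.73 CPM in Ythdf2+/- oocytes (log2 fold change -0.54, SE 0.69, adjusted p = 0.854). Chac1 measured 0.598 and 0.853 CPM in Ythdf2-/-, against 1.43, 0.955 and 1.02 CPM in Ythdf2+/- oocytes (log2 fold change -0.65, SE 0.81, adjusted p = 0.854). Chac1 stood under 1.5 CPM in every library. Phgdh measured 5.45 and 0.776 CPM in Ythdf2-/-, against 1.83, 1.57 and 0.865 CPM in Ythdf2+/- oocytes (log2 fold change 1.13, SE 0.96, adjusted p = 0.848). No label names a batch. Libraries were put in 2 batches by whether the authors' batch adjustment shifted their values up or down in the median. The first then held knockout 1 with heterozygous 1 and 2, and the second knockout 2 with heterozygous 3. With batch as a term, Psat1 had a log2 fold change of 2.44 (adjusted p = 0.0509) and Cth of -1.56 (adjusted p = 0.052), and 258 genes were called, no member among them. Within the first batch alone, Psat1 had 3.01 (adjusted p = 0.000181), with 1 knockout library. The second batch holds 1 library of each genotype and gave no test. Oocyte markers summed to 10707 and 11287 CPM in Ythdf2-/- and 4038 to 6825 CPM in Ythdf2+/- libraries. Granulosa markers summed to 138 and 366 CPM in Ythdf2-/- and 153 to 1054 CPM in Ythdf2+/- libraries. The part of either list in these values was not tested.

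In round spermatids 1 of 35 members rose and 1 fell (5.71%), where 4.9% of all genes were called (2.25% up, 2.64% down), with 1 wild type library that was assumed to vary like the knockouts. Cth had 65 and 90 counts (3.44 and 3.90 CPM) in Ythdf2-/- spermatids and 0 counts in the Ythdf2+/+ library (adjusted p = 3.49e-06). Set against a floor of 3 counts in that library (0.0959 CPM), Cth was at least 38.3-fold higher in Ythdf2-/-. Aars, the alanyl-tRNA synthetase, measured 146 and 117 CPM in Ythdf2-/-, against 234 CPM in Ythdf2+/+ (log2 fold change -0.83, SE 0.24, adjusted p = 0.0218). Its exons share bases with Exosc6 on the same strand, and the part of Exosc6 in these counts was not tested. DESeq2 called Cth and not Aars (adjusted p = 0.0714). Aldh1l2 measured 5.71 and 4.34 CPM in Ythdf2-/-, against 1.34 CPM in Ythdf2+/+ (log2 fold change 1.90, SE 0.65, adjusted p = 0.0668). Spermatocyte and spermatogonial markers (7 of 8 in the table) summed to 318 and 291 CPM in Ythdf2-/- and 447 CPM in Ythdf2+/+ libraries, and those of Sertoli, Leydig and other testis cells (6 of 10) to 8.25 and 6.29 CPM in Ythdf2-/- and 5.15 CPM in Ythdf2+/+; their part in these results was not tested.

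Atf4 measured 16.9 and 12.3 CPM in Ythdf2-/-, against 12.9 CPM in Ythdf2+/+ spermatids (log2 fold change 0.17, SE 0.39, adjusted p = 0.877). Ddit3 measured 132 and 100.1 CPM in Ythdf2-/-, against 132 CPM in Ythdf2+/+ (log2 fold change -0.19, SE 0.25, adjusted p = 0.762). Chac1 measured 3.07 and 2.86 CPM in Ythdf2-/-, against 1.95 CPM in Ythdf2+/+ (log2 fold change 0.60, SE 0.70, adjusted p = 0.723). None of these was called, and Ddit3 stood well above Atf4 in CPM in all 3 libraries. Phgdh measured 2.91 and 2.00 CPM in Ythdf2-/-, against 1.05 CPM in Ythdf2+/+ (log2 fold change 1.21, SE 0.83, adjusted p = 0.473).

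Levels per length (CPM per kilobase of exon, GENCODE M21) show which members stood highest in each control group. In wild type stem cells Asns led (246 CPM per kb), ahead of Atf4 (165), Eif4ebp1 (136) and Gars (124). In Cre-negative GV oocytes Atf4 (mean 66.2 CPM per kb, 46.6 to 78.1 between libraries) and Iars (61.5, 54.5 to 67.4) overlapped at the top, with Mthfd2 (52.4) and Slc3a2 (47.2), the heavy chain of amino acid exchangers. In Ythdf2+/- post-GV oocytes Nupr1 had the highest mean, 206 CPM per kb, ahead of Slc3a2 (109) and Mthfd2 (99.1). It ranged from 61.9 to 360.1 between libraries. Slc3a2 was at least 97.8 in each, so Nupr1 did not lead in heterozygous library 3. Nupr1 measured 490, 905 and 156 CPM in heterozygous libraries 1, 2 and 3, where granulosa markers summed to 600, 1054 and 153 CPM. The part of granulosa cells in Nupr1 levels was not tested. In the Ythdf2+/+ spermatid library Ddit3 led (77.3 CPM per kb), ahead of Asns (45.7) and Aars (25.2). Exon bases are shared by Ddit3 with Mars on the opposite strand and by Aars with Exosc6 on the same strand. On GRCm38, Atf4 lies at chr15:80255184-80257541, plus strand, Cth at chr3:157894248-157925077, minus strand and Iars at chr13:49682100-49734267, plus strand.

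The surrounding pathway did not move as one in the Mettl3 knockout stem cells. Of 15 tested genes for eIF2, its kinases and its exchange factor eIF2B, 6 fell and none rose (40%), where 15.1% of all genes fell and 15.2% rose. The fallen included the eIF2 subunit Eif2s2 (log2 fold change -0.57) and the double-stranded RNA kinase Eif2ak2 (-1.24). Of 16 mitochondrial tRNA synthetases 1 rose (Fars2, 0.57) and 6 fell (Cars2, -0.86), and of 9 other cytosolic ones 2 fell, Qars (-0.51) and Farsb (-0.35). ER chaperones and sensors had 2 up and 2 down of 18 (22.2%, under the 30.4% of all genes), with Hsp90b1 at -0.18 and Hspa5 at 0.18. Other amino acid transporters had 4 up and 1 down of 10, Slc7a7 at 1.04 and Slc38a1 at -0.85. Folate, glycine, proline and glutathione genes had 3 up and 4 down of 20. Cbs, which feeds cystathionine to Cth, fell by 2.30 and the glycine cleavage enzyme Gldc rose by 0.92 on the log2 scale. The mTORC1 list had 3 down of 12 (25%), among them Deptor (-0.87) and Nprl2 (-0.93).

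In the triple knockout against wild type, the eIF2 list had 2 up and 4 down of 15 (40%, against 25.1% of all genes), with Eif2ak2 at -1.53 and Eif2s1 at -0.87. Mitochondrial synthetases had none called of 16 (edgeR), other cytosolic ones 1 up of 9 (Dars, 0.19) and ER genes 1 up and 1 down of 18, Hspa5 at 0.38 and Dnajc3 at -0.78. Other transporters had 1 up and 2 down of 10 (Slc38a1, -1.28; Slc7a8, 0.75), folate and related genes 3 up and 3 down of 20 (Gldc, 1.15) and the mTORC1 list 1 up and 3 down of 12 (Sesn3, 0.48; Mlst8, -0.97).

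In Mettl3-deleted GV oocytes the eIF2 list had 2 up and 2 down of 15, against 28.8% of all genes called. The ER stress kinase Eif2ak3 (PERK, 1.68) and Eif2b5 (1.496) rose, while the amino acid sensing kinase Eif2ak4 (GCN2, -0.98) and Eif2ak2 (-2.16) fell. ER genes had 3 up and 3 down of 19, with the co-chaperones Dnajb9 at 2.39 and Dnajc3 at -1.09. Mitochondrial synthetases had 3 up of 17 (Pars2, 1.62), and other cytosolic ones 1 up of 9 (Hars, 1.795). Other transporters had 1 up and 2 down of 10, Slc6a9 at 1.37 and Slc38a1 at -3.17, so Slc38a1 was lower in all 3 of these knockouts. Folate and related genes had 3 up and 3 down of 18 (Tyms, 1.03; Got1, -0.98), and the mTORC1 list 1 up of 12 (Sesn1, 1.63).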

How the data were processed

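The submitters' processing notes name mm10 as the build and STAR 2.4.2a, cutadapt, CASAVA 1.8.2 and DESeq2 as tools of the authors. Which counter and annotation they used, and whether by strand, is not given in the sources used here. Raw count columns deposited by the authors entered every test. Signal columns (normalized counts) and batch-adjusted log2 columns deposited by the authors for post-GV oocytes served to infer which libraries shared a batch. Columns matched to no sample numbered 0. In 1 heterozygous post-GV library the title says replicate 2 and the bracketed name 3, and it was taken as 3.

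The 27 libraries form 12 groups and 9 comparisons. Separate fits per table used edgeR 4.0.16, limma 3.58.1 and R 4.3.3 (TMM; low genes removed by filterByExpr; robust quasi-likelihood F test; Benjamini-Hochberg over all tested genes; called under 0.05), keeping 11951, 13551, 13910 and 16031 genes in stem cells, GV oocytes, post-GV oocytes and spermatids. Levels are CPM after TMM, standard errors come from the F statistic, and folds against 0 counts use a floor of 3 counts. Intervals of the floor cover counting error only. The fits were tested on simulated data.

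The members, gene lists, motif and tests were chosen with earlier results of these data known. Members called in a comparison, or the 3 with the smallest p where fewer were called, are given by library, and Atf4, Ddit3, Chac1 and Phgdh throughout; pathway genes are up to 2 called per list, of which some are not reported here. Alternatives were RLE scaling, no filter, a mean CPM of at least 20, DESeq2 1.42.0, only the compared groups, the replicate number as a block, each library left out and GV controls 2 and 3 left out; the batch term was planned and the fit to the first batch was added after seeing the data.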

Additional observations from a re-analysis of the deposited data

Results flagged for a closer look

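Within the 4 Cre-negative GV oocyte libraries, 4 members had 1 library far from the other 3, out of 40 genes so examined, and chance gives about 1 in 20. Aldh1l2 was highest in control 3 at 3.88 CPM. Cth was highest in control 2 at 47.8 CPM. Slc7a11 was lowest in control 1 at 307 CPM. Mars was highest in control 1 at 33.3 CPM.

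Some members had every library of a knockout on one side of its controls in one tissue and on the opposite side in another. None of these differences between tissues was tested. The share of all genes that lay on opposite sides in this way was not computed. With so few libraries per group the order of libraries alone can give such cases, so the counts are not read as a trait of the members. Between the Mettl3 comparisons this held for 3 of 37 members, with log2 fold changes in stem cells and GV oocytes of 0.49 and -3.39 for Psat1, 0.85 and -1.54 for Aldh18a1, and 0.45 and -3.16 for Pck2. Psat1 and Pck2 had few counts in Cre-positive oocytes. Between the Ythdf2 comparisons in stem cells and post-GV oocytes it held for 2 of 38, Cth (0.16 and -1.55) and Iars (-0.049 and 0.92). Between Ythdf2 stem cells and spermatids it held for 4 of 32, Ddit3 (0.21 and -0.19), Pck2 (-0.14 and 0.15), Slc7a3 (-0.49 and 1.17) and Gars (0.032 and -0.38). Between Ythdf2 post-GV oocytes and spermatids it held for 3 of 34, Chac1 (-0.65 and 0.60), Iars (0.92 and -0.32) and Cth (-1.55 in oocytes, and 0 counts in the Ythdf2+/+ spermatid library). Apart from Cth in spermatids, no Ythdf2 value among these passed the test.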

How the results depend on the processing

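With DESeq2 the members called numbered 0 for Ythdf1, 0 for Ythdf3, 4 for the triple knockout, 7 for Mettl3 knockout stem cells, 5 for the triple against the Mettl3 knockout and 1 in spermatids, against 2, 6, 8, 15, 18 and 2 with edgeR; the cause was not tested. In GV oocytes it called 12, with Sars lost and Asns and Slc7a11 gained, against 11 with edgeR. With a mean CPM of at least 20, 5 were called in GV oocytes and 0 in spermatids, where fewer genes entered the test. Without GV controls 2 and 3, 7 were called. In post-GV oocytes 1 was called in the first batch alone, a fit chosen after seeing the data. Leaving out 1 library at a time gave 1 for Ythdf1 each time, 0 to 1 for Ythdf2, 0 to 3 for Ythdf3, 6 to 8 for the triple knockout, 10 to 13 for Mettl3, 10 to 17 for the triple against Mettl3, 6 to 12 in GV oocytes and 0 in post-GV oocytes. No leave-out test was run in spermatids.

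Replicate numbers were not taken as pairing the samples in the main fits, since the labels name no pairs. Deviations of same-numbered libraries correlated by 0.417, 0.0919 and 0.245 in GV oocytes and by -0.00097 to 0.116 in stem cells. In post-GV oocytes the values were 0.432 and -0.606. A correlation of 0.1 was set to count as pairing, and some of these values exceeded it. With the replicate block the calls were 2, 0 and 6 for the Ythdf1, Ythdf2 and Ythdf3 knockouts, 8 for the triple, 14 for Mettl3, 18 between them, 12 in GV oocytes (Eprs lost, adjusted p = 0.0514; Slc7a11 and Wars gained) and 0 in post-GV oocytes. In spermatids no paired analysis was possible because the single wild type library leaves no second pair. RLE scaling shifted the median of all genes by at most 0.08 on the log2 scale. For the named genes no direction of a called value reversed. Of their alternative values 747 stayed the same and 146 lost their call. Staying the same meant keeping the side of the threshold or, without an adjusted p, lying within the standard error of the main value. The other 18 moved, by a change of sign when uncalled or by more than that error without an adjusted p. Stem cell depth limits Vldlr and other members at low counts most.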

Other observations

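Outside the triple, Mettl3 and GV oocyte comparisons, few genes of the surrounding lists were called. In the cells labelled Ythdf3 knockout these were Hspa5, the main ER chaperone, the aspartyl-tRNA synthetase Dars and Mthfd1 of cytosolic folate metabolism, all higher. In the cells labelled Ythdf2 knockout Tdh, a threonine-degrading enzyme of mouse stem cells, was higher and Eif2s2 and Dnajc3 were lower. The Ythdf1 knockout had none called by edgeR. In Ythdf2-/- spermatids Cars2 and Gss, which completes glutathione synthesis, were higher, and Eif2s2 and Hsp90b1 were lower, than in the 1 Ythdf2+/+ library. Eif2s2 had a log2 fold change of -0.38 in Ythdf2 knockout stem cells and -0.81 in Ythdf2-/- spermatids.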
